A study of Mus musculus with 10 samples.

Results

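In mouse embryonic fibroblasts, 814 of the 1941 sites listed for the RNA-binding protein Cirbp lay inside the body of a gene and overlapped no listed site of its relative Rbm3, which is 41.9% of the Cirbp list. A site was taken when it shared no base on its strand with an Rbm3 site, when the listed loci of exactly 1 gene covered it, and when its marked nucleotide was at least 2000 nt from the 3′ end and at least 1000 nt from the 5′ end of that gene's most abundant transcript. The 814 sites fell in 586 host genes. Both lists together held 4059 sites. The absence of an overlapping Rbm3 site and both distances are therefore properties that chose the sites, and they are given here as description only.

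Sites came from PAR-CLIP, in which cells take up 4-thiouridine, ultraviolet light crosslinks the labelled RNA to bound protein, and the protein is pulled down with its RNA fragments. Here fibroblast lines stably expressing FLAG-tagged Cirbp or FLAG-tagged Rbm3 were labelled with 100 µM 4-thiouridine for 16 h at 37 °C and precipitated through the tag, with 1 library per protein, so that no site has a replicate. Polyadenylated RNA was sequenced from 4 groups of the fibroblasts with 2 libraries each: siRNA against Cirbp at 37 °C (siCirbp), siRNA against Rbm3 at 37 °C (labelled siRbm3), mock transfection at 32 °C, and mock transfection at 37 °C. No group with a control siRNA was part of the data used here, and the labels do not say whether the 2 libraries of a group came from separate cultures, so p-values measure only the spread between these libraries.

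Cirbp and Rbm3 are small proteins with a single RNA recognition motif and a glycine-rich tail, and both are made in larger amounts when mammalian cells are mildly cooled. They bind messenger RNA precursors and mature messenger RNAs, and have been linked to splicing, the choice of polyadenylation site, RNA stability and translation. A site far from a gene's 3′ end can lie in an intron, a coding exon or a long 3′ untranslated region.

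Cirbp was listed at 10.8 and 6.07 FPKM (fragments per kilobase of transcript, scaled to sequenced fragments) in the siCirbp libraries, 13.8 and 23.8 FPKM in the libraries labelled siRbm3, and 34.5 and 37.2 FPKM in mock cells at 32 °C, against 15.9 and 17.1 FPKM in mock cells at 37 °C. The Rbm3 gene had 5.54 and 7.55 FPKM in siCirbp libraries, 3.05 and 1.16 FPKM in the libraries labelled siRbm3, and 3.64 and 3.21 FPKM in mock cells at 32 °C, against 1.85 and 2.21 FPKM in mock cells at 37 °C. The log2 change of Cirbp in siCirbp libraries was -0.94, with a limma adjusted p of 0.116 that did not pass the threshold of 0.05 used below, and the change of Rbm3 in the libraries labelled siRbm3 was -0.03 (adjusted p = 0.971). The first library labelled siRbm3 held more Rbm3 RNA than either mock library at 37 °C, against its label. Neither gene held a site of the Cirbp list, counting sites in the locus of just 1 gene.

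The RNA-seq libraries had an estimated 24.8 M to 27.8 M mapped fragments. This was worked back from the deposited coverage and FPKM with a read length of 76 bp. Of 10 fibroblast marker genes 9 averaged at least 1 FPKM, with Thy1, a surface marker of many fibroblasts, listed at 0 in all 8 libraries. Their summed level was 5767 to 6680 FPKM in siCirbp libraries, 9408 to 11490 FPKM in the libraries labelled siRbm3 and 10070 to 12740 FPKM in mock cells at 32 °C, against 9054 to 9149 FPKM in mock cells at 37 °C. S100a4 was the largest member of that sum, and the higher sum at 32 °C followed it. It had 3576 and 3281 FPKM in siCirbp libraries and 5396 and 5110 FPKM in those labelled siRbm3. In mock cells it had 7339 and 10170 FPKM at 32 °C, against 4421 and 4315 FPKM at 37 °C. Vim, the next largest, had 1939 and 1337 FPKM in siCirbp libraries and 1838 and 3924 FPKM in those labelled siRbm3. In mock cells at 37 °C it had 2889 and 2972 FPKM. Col1a1, Col1a2, Vim, Fn1 and Pdgfrb were lower in both 32 °C libraries than in both mock libraries at 37 °C, while Col3a1, Pdgfra and Postn were higher. Among markers of other cells, Ptprc, Emr1, Lyz2, Epcam, Cdh5, Kdr, Myod1, Myog, Adipoq and Lep were at or near 0 in all 8 libraries. At least 1 FPKM on average was reached by 2 of 6 macrophage markers (Cd68 and Cd14), 1 of 5 epithelial (Krt19), 2 of 5 endothelial (Flt1 and Eng), 2 of 5 muscle (Tnnt2 and Des), 1 of 4 adipocyte (Fabp4) and 2 of 4 neural markers (Nes and Sox2). The macrophage list summed to 14.2 to 14.97 FPKM in siCirbp libraries, 13.1 to 25.04 FPKM in those labelled siRbm3 and 30.5 to 35.98 FPKM in mock cells at 32 °C, against 17.6 to 20.6 FPKM in mock cells at 37 °C. The adipocyte list summed to 5.26 to 25.2 FPKM, 6.60 to 10.1 FPKM and 26.7 to 26.8 FPKM in the same groups, against 9.98 to 10.2 FPKM in mock cells at 37 °C. The neural list summed to 57.1 to 77.0 FPKM, 64.0 to 68.4 FPKM and 17.5 to 18.4 FPKM, against 50.4 to 53.9 FPKM in mock cells at 37 °C. At 32 °C the macrophage and adipocyte sums were thus higher and the neural sum lower than at 37 °C. The muscle list summed to 66.8 FPKM in both siCirbp libraries, 52.2 to 67.5 FPKM in those labelled siRbm3 and 37.8 to 40.2 FPKM in mock cells at 32 °C, against 47.7 to 52.4 FPKM in mock cells at 37 °C. The endothelial list summed to 10.7 to 18.6 FPKM and the epithelial list to 0.0947 to 7.68 FPKM over the 8 libraries. The part of these markers in the results was not tested.

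The sites were narrow. Their width had a median of 29 nt and ran between 18 and 91 nt, and the marked nucleotide lay at a median of 44.6% of the way along the site. The gene's strand was known for 653 of the 814 sites, and all 653 lay on the strand of their host gene, as did the 642 of 777 Rbm3-only gene body sites with a known strand. The sites were therefore in the sense of the host's RNA wherever this could be looked up.

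Inside the host locus the sites leaned towards the 3′ end even though its last 2000 nt were left out. The marked nucleotide had a median distance of 26660 nt from the 5′ end and 10299 nt from the 3′ end, which put it at a median of 66.9% of the way along the locus, and 550 sites (67.6%) lay beyond the middle. The last 10% of the locus held 146 sites and the first 10% held 15. Of the 777 Rbm3-only sites chosen by the same distances, 471 (60.6%) lay beyond the middle, 150 in the last 10% and 50 in the first 10%. The lists thus had a like share at the 3′ end, and the Cirbp list a smaller share at the start of the locus, although the 5′ limit removes part of the first 10% in both.

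**Figure D1:**
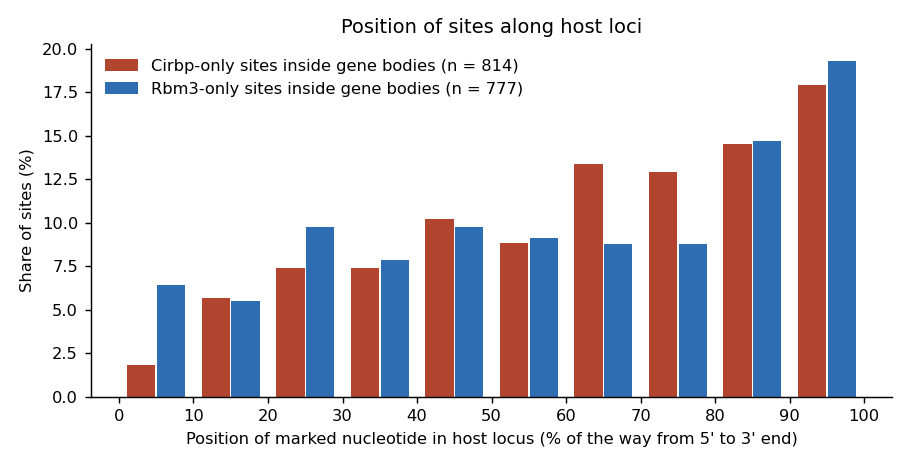
Share of sites (%) in steps of 10% of the host locus, from the 5′ to the 3′ end, for the 814 Cirbp-only and the 777 Rbm3-only sites inside gene bodies. The last step holds 17.9% of the Cirbp-only and 19.3% of the Rbm3-only sites, and the first 1.84% and 6.44% of the same lists.

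The spliced transcript made up a median of 10.9% of the locus in which a site lay, and only 4 sites, in 2 host genes, were in loci whose transcript had no intron. Whether a site lay in an exon or an intron was not analysed here, since no exon coordinates of the build were used. A further 17 sites lay within 2000 nt of the 3′ end of some other listed transcript of their gene, so they were internal to the most abundant transcript but near the end of a shorter one. At the 3′ limit, the nearest sites inside were in Mastl, Ankrd17 and Zfp238, at 2005, 2016 and 2017 nt, and the nearest outside in Epha7, Ctdspl2 and Mbnl2, at 1989, 1976 and 1964 nt. At the 5′ limit, C330046G13Rik, Rps3 and Atp5b were just inside, at 1062, 1083 and 1132 nt, and Commd2, Pnn and BC005537 just outside, at 958, 890 and 878 nt.

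The score of a site, the authors' own value, follows a scale that can be read back. Every score up to 500 in either list was within 1.1 of 1 plus 100 times the log2 of a whole number, so a score of 1 stands for 1, 101 for 2 and 201 for 4. What the whole number counts is not stated in the sources used here. The 814 sites had a median score of 301, which stands for 8, with quartiles of 201 and 371 (4 and 13) and a range of 1 to 938 (1 to about 662). At the lowest value of 1 stood 71 sites (8.72%), while 339 (41.7%) stood at 10 or more. The 418 Cirbp-only sites near 3′ ends had a median score of 334 (10), with 50.7% at 10 or more and 5.26% at 1. The whole Cirbp list had the same median as the gene body sites, 8, with 43.9% at 10 or more and 9.12% at 1. Low numbers were thus common to the list.

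The highest score belonged to Srsf1, an SR protein that promotes exon recognition in splicing, at chr11:87864234-87864263 (build mm9, plus strand), with a score of 938. Another Srsf1 site, at chr11:87864337-87864391, had a score of 820. Xpo1, the main export receptor for proteins with a leucine-rich nuclear export signal, had a score of 900 at chr11:23185805-23185837, 11784 nt before its 3′ end. Rc3h2, a relative of roquin that represses messenger RNAs with stem-loop elements, followed with a score of 798 at chr2:37230499-37230527 on the minus strand. These 4 sites stood for about 251 to 662 on the counting scale, against the median of 8.

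Below them came Zfp711 with a score of 782 (chrX:109746053-109746078), and Atf6, a sensor of unfolded proteins in the endoplasmic reticulum, with 692 (chr1:172783073-172783101). Tm9sf3 held 2 of the 12 highest sites, with scores of 671 and 640 at chr19:41306918-41306965 and chr19:41289239-41289286. The 14-3-3 protein gene Ywhae had a score of 667, Ankhd1 646, the splicing regulator Hnrnpa2b1 636, and Rheb, the small GTPase that activates mTORC1, 611. In the direction of transcription these sites differed widely in place: the Atf6 site lay 9.07% of the way along its locus and the Rc3h2 site 90.7%.

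Sites clustered in a minority of hosts. A single site was found in 450 hosts, 2 in 93 and 3 or more in 43, and hosts with at least 2 held 364 of the 814 sites. Among the 228 pairs of neighbouring sites within a host, 34 (14.9%) were within 200 nt and 71 (31.1%) within 1000 nt of each other, with a median distance of 3015 nt. Neighbouring sites of a host share its RNA and the library, so they are not independent.

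The hosts with 7 sites each were Srsf1, Rc3h2, Eif4g2, Sf3b1 and Zc3h7b. In Rc3h2, 6 of the 7 sites lay between 90.4% and 94.6% of the way along the locus. Srsf1 is a short gene, with a locus of 6087 nt and a transcript of 5262 nt, so most of the locus is kept in the transcript. Its 7 Cirbp-only sites lay beside 7 Cirbp sites that overlapped Rbm3 sites. In Eif4g2, which encodes a translation initiation factor of the eIF4G family, the highest sites (score 572 each) lay 4596 and 7081 nt before the 3′ end. Sf3b1, the core subunit of the splicing factor SF3b, had sites between 19.2% and 94.6% of the locus and 1 further site overlapping Rbm3. Zc3h7b, a zinc finger protein, held no Rbm3 site.

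**Figure D2:**
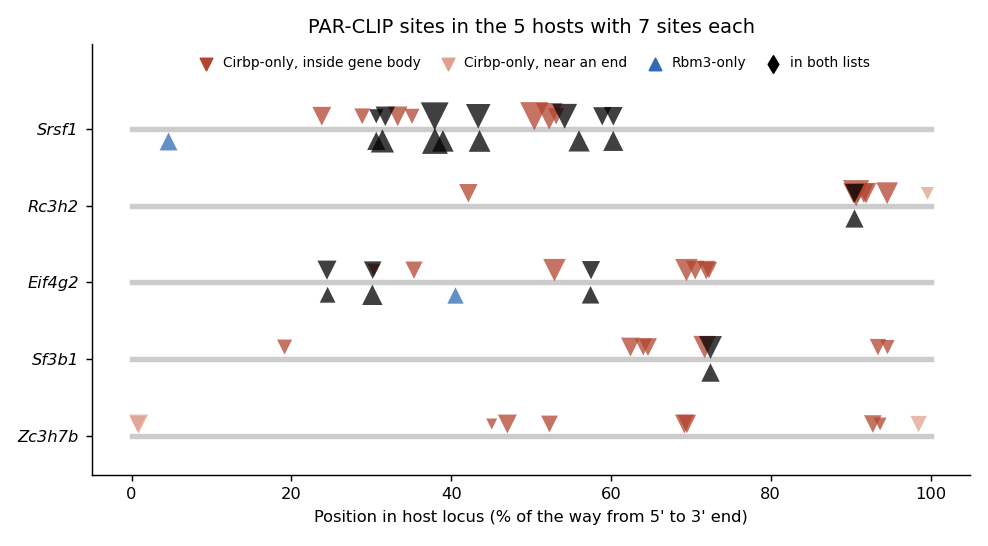
Sites in the 5 hosts with 7 Cirbp-only gene body sites each, drawn along each locus from the 5′ to the 3′ end (% of the locus). Triangles above a line are Cirbp sites and triangles below it Rbm3 sites, with a size that grows with the log of the whole number behind the score. Black marks sites in both lists. Of the Rc3h2 sites 6 gather near the 3′ end, while those of Srsf1 lie among sites shared with Rbm3.

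Rbm3 was rarely listed next to these sites. An Rbm3 site lay within 100 nt of 36 of them (4.42%) and within 1000 nt of 107 (13.1%). The rule had already left out sites that overlap an Rbm3 site, so both shares were partly set by the choice of sites. At the level of genes, 174 of the 586 hosts (29.7%) carried some Rbm3 site in the locus. The share of all genes with any Rbm3 site was not counted. Hosts of Rbm3-only gene body sites numbered 569. Hosts of both kinds were 114 genes, which is 19.5% of the Cirbp-only and 20.04% of the Rbm3-only hosts. Among the 10901 genes averaging at least 1 FPKM, 505 were hosts of Rbm3-only and 544 of Cirbp-only gene body sites. Each kind was thus more common among hosts of the other kind than among all these genes, which was not tested. Of the 586 hosts, 86 also had a Cirbp-only site near the 3′ end, and 305 of the 10901 genes were hosts of such sites.

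Host genes were mostly well expressed and long. Their median level, as a mean over the 8 libraries, was 21.3 FPKM over all 586. Among the 10901 genes with a mean of at least 1 FPKM, 4.99% were hosts (544 genes). With these genes split into 4 equal groups by expression, hosts were 1.43%, 4.29%, 5.87% and 8.37% from the lowest to the highest group, and with a split by locus span 1.06%, 3.34%, 7.01% and 8.55%. By transcript length the shares were 1.14%, 3.08%, 4.99% and 10.7%. The distances in the rule leave short loci little or no room for a site, so part of the relation with length was set by the choice of sites. Hosts of Rbm3-only gene body sites, chosen by the same distances, were 1.94%, 4.0%, 5.32% and 7.27% by locus span. The summed whole numbers of a host followed its FPKM only weakly, with a Spearman rho of 0.25 over the 586 hosts, which share a single library.

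Vim, the intermediate filament protein of mesenchymal cells, was the most abundant host, with 1939 and 1337 FPKM in siCirbp libraries, 1838 and 3924 FPKM in those labelled siRbm3, and 1948 and 1828 FPKM in mock cells at 32 °C, against 2889 and 2972 FPKM in mock cells at 37 °C. The libraries labelled siRbm3 lay on either side of the mock cells at 37 °C. Atp5b (the beta subunit of ATP synthase), Ywhae, Itgb1 (the beta-1 integrin) and Calu (calumenin, a calcium-binding protein of the secretory pathway) averaged 583, 372, 442 and 387 FPKM over the 8 libraries. Vim still held just 1 site, with a score of 334, and Atp5b 2 sites with scores of 371 and 1.

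At the other end, 42 hosts with 44 sites averaged under 1 FPKM. Zfp711, a zinc finger gene on the X chromosome, was listed at 0 FPKM in all 8 libraries while holding a site with a score of 782 and another with 392. The developmental transcription factor Bcl11a was also listed at 0 in all 8, with sites scoring 382 and 347. The tagged lines and the transfected cells are different material, and a 0 in such tables can also be a failed estimate; neither was tested.

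Of 81 listed genes for splicing factors and other RNA-binding proteins 32 were hosts (39.5%), with 83 sites, against 4.99% of all genes averaging at least 1 FPKM and 8.37% of the highest of the 4 expression groups. A listed Rbm3 site was also present in 41 of the 81. Among the 32 hosts were the poly(C)-binding protein Pcbp2 and the heterogeneous nuclear ribonucleoproteins Hnrnpa2b1, Hnrnpab and Hnrnph1. Heterogeneous nuclear ribonucleoproteins package nuclear RNA and steer splice site choice. The genes of that list had a median of 36 FPKM and 80 of the 81 averaged at least 1 FPKM.

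Chromatin and transcription regulators gave 18 hosts of 56 genes, including the remodeller Chd4, the bromodomain protein Brd2 and Polr2a, the large subunit of RNA polymerase II. Translation factors and ribosomal proteins gave 8 of 29, among them Rps3, Eif4g2 and the poly(A)-binding protein Pabpc1. Ubiquitin ligases and deubiquitinases gave 5 of 27, and genes of the actomyosin, adhesion and microtubule cytoskeleton 6 of 45, including Myh9, the heavy chain of non-muscle myosin IIA. Membrane trafficking gave 2 of 34 (Cltc and Ap2b1, of clathrin and its adaptor) and SR protein kinases 1 of 7 (Dyrk1a). Of 23 genes for pre-mRNA 3′ end processing, Pabpc1, Cpsf6 and Cstf3 were hosts. Rbm3 sites were listed in 21 of the 56 chromatin, 9 of the 29 translation and 6 of the 27 ubiquitin genes. They were in 4 of the 45 cytoskeleton, 3 of the 34 trafficking, 1 of the 7 kinase and 7 of the 23 end-processing genes. Among all genes averaging at least 1 FPKM 4.99% were hosts, and 8.55% in the group with the longest loci. The expressed chromatin and ubiquitin genes had median loci of 91000 and 109000 nt, against 20940 nt in all tested genes.

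Collagens and other extracellular matrix genes gave none. Counting sites in the locus of just 1 gene, 0 of the 43 held a listed Cirbp site and 1 a listed Rbm3 site. The lack of sites was thus not particular to Cirbp. Of the 43, 33 averaged at least 1 FPKM, with a median of 70.4 FPKM and a median locus of 51400 nt. Of 20 nuclear or snoRNA-hosting noncoding RNAs none was a host, but their median locus of 2350 nt is shorter than the distances of the rule allow, and 11 of the 20 averaged at least 1 FPKM. No group was tested against any other.

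Whether siRNA against Cirbp changed the level of its gene body hosts was asked with limma on log2(FPKM + 1), fitted over the 8 libraries and 10901 genes, p adjusted by Benjamini-Hochberg and called under 0.05. After siRNA against Cirbp, 10 of 544 hosts (1.84%) were higher than in mock cells at 37 °C and 0 were lower, against 3.39% of all genes called in either direction, 2.77% higher and 0.624% lower. As deposited, the share was near or below that of all genes. At an unadjusted p under 0.05 stood 120 hosts (22.1%) and 24.2% of all genes. The median log2 change was 0.08 in the hosts and 0.08 in all genes. The 3015 tested genes with a transcript of at least 4000 nt had a median of -0.06, with 0.564% higher and 0.929% lower. With a trend on transcript length removed, the medians were 0.17 in hosts and 0.09 in all genes. In that setting 2.21% of hosts were higher and 0 lower, against 1.9% and 0.495% of all genes. The part of transcript length in these values was not tested. Leaving out any single library moved the count: it was 0 without either mock library, without either library at 32 °C or without the second siCirbp library, 19 without the first siCirbp library, and 89 when 1 of the libraries labelled siRbm3 was left out. Without the first siCirbp library 3.12% of hosts were higher and 0.368% lower, against 4.76% and 1.45% of all genes. Without 1 library labelled siRbm3 it was 13.1% and 3.31% of hosts, against 10.5% and 4.27% to 4.3% of all genes.

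The 10 genes rose by log2 changes of 0.81 to 1.79. Mcm2, a subunit of the replicative helicase, had 32.6 and 52.7 FPKM in siCirbp libraries, against 9.95 and 12.8 FPKM in mock cells at 37 °C, a log2 change of 1.79 ± 0.26 (SE; limma adjusted p = 0.0266). Exo1, a DNA exonuclease of mismatch repair, had 3.51 and 7.10 FPKM against 0.911 and 1.16 FPKM (1.57 ± 0.31, adjusted p = 0.044). Hat1, a histone acetyltransferase acting on newly made H4, had 91.7 and 95.6 FPKM against 33.9 and 32.6 FPKM (1.47 ± 0.16, adjusted p = 0.0211). In each of these genes both siCirbp libraries lay above both mock libraries. In bulk RNA, more cells with a transcript and more of it per cell cannot be told apart.

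Ccna2 (cyclin A2, of S phase and mitosis) had 102 and 106 FPKM in siCirbp libraries against 42.2 and 39.6 FPKM in mock cells at 37 °C (log2 change 1.32 ± 0.15; limma adjusted p = 0.0211). Depdc1b had 8.38 and 7.43 FPKM against 2.46 and 2.71 FPKM (1.31 ± 0.16, adjusted p = 0.0211). Kif18b, a mitotic kinesin, had 18.1 and 20.2 FPKM against 8.68 and 9.84 FPKM (0.97 ± 0.15, adjusted p = 0.0266). The other 4, named because they complete the count, were Hnrnpab, Psmc2 (a proteasome ATPase), Ddx39b (an RNA helicase of splicing and export) and Hnrnpd, with log2 changes of 0.92, 0.85, 0.81 and 0.81. Over 17 or 18 alternative settings each, the highest adjusted p of these 10 genes was between 0.225 and 0.389. Of the 10, 7 held 1 site, as did 410 of the 544 tested hosts. Their top scores ran from 201 to 515 (Hat1), where all 814 sites had quartiles of 201 and 371.

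**Figure D3:**
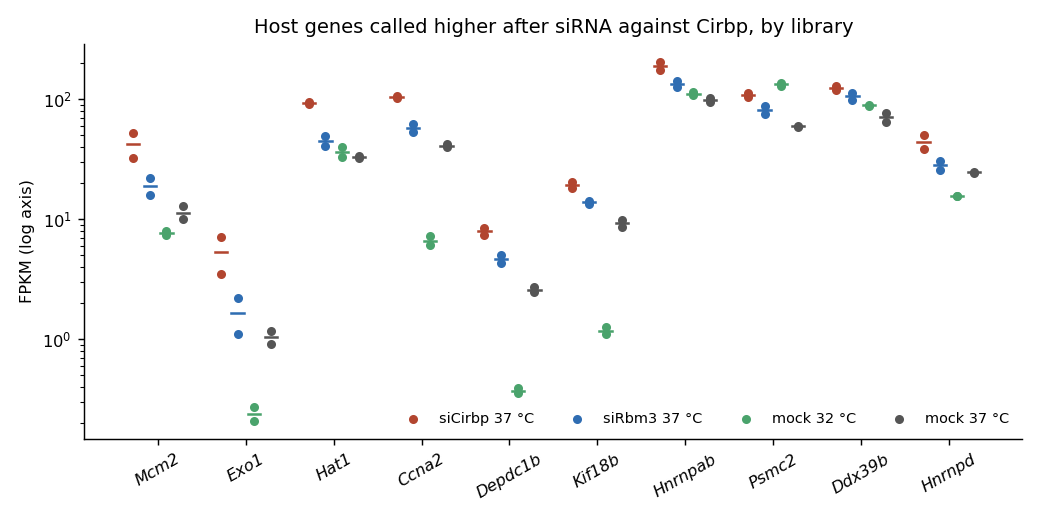
FPKM (log axis) of the 10 hosts called higher after siRNA against Cirbp, with 1 point per library and a bar at the group mean, in the order siCirbp, siRbm3, mock 32 °C and mock 37 °C. For each gene both siCirbp points lie above both mock 37 °C points, and those of Ccna2, Depdc1b and Kif18b are lowest at 32 °C.

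The hosts with most sites gave no call. Srsf1 had 80.6 and 97.0 FPKM in siCirbp libraries, against 48.2 and 47.4 FPKM in mock cells at 37 °C, a log2 change of 0.87 ± 0.29 with a limma adjusted p of 0.122. Both siCirbp libraries were higher, yet the difference did not pass the threshold. Xpo1 had 49.3 and 58.3 FPKM against 41.1 and 39.1 FPKM (0.41 ± 0.39, adjusted p = 0.570). Rc3h2 overlapped between the groups, with 11.3 and 12.6 FPKM in siCirbp libraries against 12.3 and 12.6 FPKM in mock cells at 37 °C. Of the 43 hosts with 3 or more sites 1, Ddx39b, was called.

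By list, 2 of 32 RNA-binding protein hosts were higher (Hnrnpab and Hnrnpd) and 0 lower, and hosts of the other lists gave no call. The median log2 change was 0.41 in those 32 hosts and 0.36 in the 48 genes of that list that were tested and held no such site, against 0.08 in all genes. Hosts and other members of the list thus had like medians. The 2 calls were 1 under median centring and 0 under quantile normalization.

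The same hosts were then compared in mock cells at 32 °C, where Cirbp itself was higher (log2 change 1.07, limma adjusted p = 0.0313). Of 544 hosts, 64 (11.8%) were higher and 89 (16.4%) lower than in mock cells at 37 °C, and 32.8% of all genes were called in either direction, 13.0% higher and 19.8% lower. The split depended on scaling: it was 95 higher and 68 lower with each library centred on its median, where the median of all genes was 0.11 rather than -0.02, and 92 and 57 with a trend on transcript length removed. With centring 17.5% of hosts were higher and 12.5% lower, against 19.4% and 15.8% of all genes. Once the length trend was taken out, 16.9% of hosts were higher and 10.5% lower, against 11.9% and 17.3% of all genes. The share called higher was thus below that of all genes as deposited and with centring, and above it without the length trend. The count was 18 to 40 without any single mock library, with 2.72% to 4.82% of all genes lower and 0.725% to 2.93% higher. It was 262 or 264 when 1 of the libraries labelled siRbm3 was left out, with 23% of hosts and 20.5% of all genes higher, and 25.2% to 25.6% of hosts and 26% of all genes lower. The median log2 change of the hosts was 0.03 and that of all genes -0.02.

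Ccng1, a target of p53 that encodes cyclin G1, had the largest rise, with 163 and 189 FPKM in mock cells at 32 °C against 31.8 and 31.2 FPKM at 37 °C (log2 change 2.44 ± 0.31, limma adjusted p = 0.00287). The other large rises were Gpcpd1, a glycerophosphodiesterase (1.30), Xrcc5, the Ku80 subunit of end joining (1.27), Ei24 (1.25), the kinase Riok3 (1.21) and Wdr43, of ribosome biogenesis (1.18). Each had both 32 °C libraries above both 37 °C libraries. The call of Gpcpd1 was lost with the highest transcript alone (adjusted p = 0.197), and those of Gpcpd1 and Wdr43 were lost on leaving out any single mock library.

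The largest fall was that of Ccna2, which had 6.08 and 7.18 FPKM in mock cells at 32 °C against 42.2 and 39.6 FPKM at 37 °C (log2 change -2.46 ± 0.15, limma adjusted p = 0.001). Kif18b had 1.104 and 1.25 FPKM against 8.68 and 9.84 FPKM (-2.23 ± 0.15, adjusted p = 0.00101). Ect2, which activates RhoA for cytokinesis, fell by 1.68 on the log2 scale, the remodeller Chd3 by 1.62, Top2a, the topoisomerase that resolves mitotic chromosomes, by 1.60 and Myh9 by 1.50. The call of Top2a was lost on leaving out any single mock library, and that of Chd3 without the second library of either mock group. Among hosts of the chromatin list 10 of 18 were lower and 0 higher, including Polr2a with 17.4 and 17.4 FPKM against 42.1 and 45.1 FPKM. In the same fit, 25 of the 37 other tested genes of the list were lower and 0 higher. With the length trend removed, the count among the 18 hosts was 4 lower and 1 higher.

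The hosts are long, and long transcripts had lower levels at 32 °C. All 3015 tested genes with a transcript of at least 4000 nt had a median log2 change of -0.34 in mock cells at 32 °C against 37 °C, while the median transcript of the 544 hosts was 4398 nt and their median change 0.03. For hosts of Rbm3-only gene body sites, with a median transcript of 4430 nt, the median change was -0.29, with 22 of 505 (4.36%) higher and 148 (29.3%) lower. Hosts of Cirbp-only sites that held no Rbm3-only gene body site gave 59 higher and 69 lower of 435, with a median of 0.10. Hosts of Cirbp-only sites near 3′ ends, with a median transcript of 3685 nt, had a median change of 0.01. The 101 tested hosts of gene body sites in both lists (4327 nt) had 0.03, with 11.9% higher and 20.8% lower. A median near 0 was thus not particular to the Cirbp-only gene body hosts. In both 32 °C libraries the Cirbp-only gene body hosts had a median above that of the Rbm3-only hosts, at 0.05 and 0.04 against -0.29 and -0.31. This difference between the lists was not tested.

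**Figure D4:**
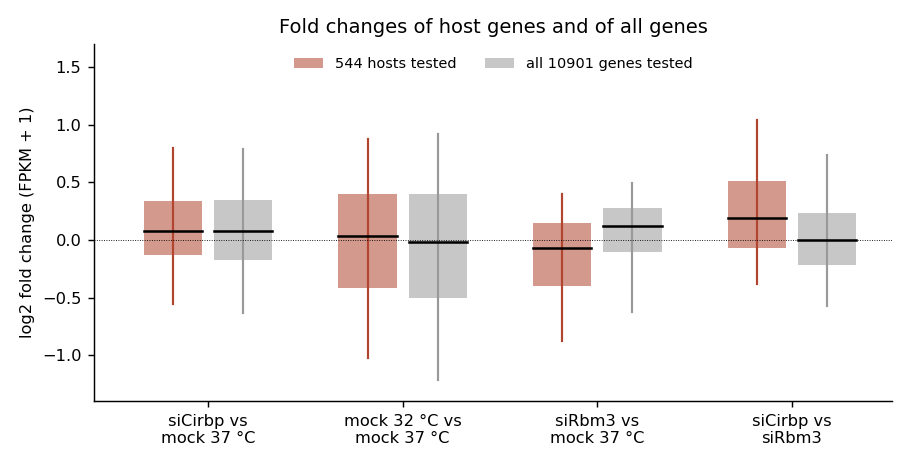
Log2 fold changes of FPKM + 1 for the 544 hosts tested (red) and all 10901 genes tested (grey) in 4 comparisons. The bar spans the quartiles, the black line is the median and the thin line runs from the 5th to the 95th percentile. Hosts and all genes have medians of 0.08 and 0.08 for siCirbp against mock 37 °C, and of 0.19 and 0.00 for siCirbp against siRbm3.

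In the libraries labelled siRbm3, 0 of 544 hosts were called against mock cells at 37 °C, and 0.0% of all genes. At an unadjusted limma p under 0.05 stood 73 hosts (13.4%) and 13.3% of all genes. The median log2 change was -0.07 in hosts and 0.12 in all genes. The smallest p values among falls belonged to Trps1, Arhgap5 and Hif1a (the oxygen-regulated transcription factor), with log2 changes of -0.97, -1.17 and -0.65, and among rises to Depdc1b, Ddx39b and Kif18b, with 0.66, 0.58 and 0.53.

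The 2 libraries labelled siRbm3 did not behave alike in the hosts. Relative to the mean of mock cells at 37 °C, the median host stood at a log2 difference of 0.07 in the first library and -0.19 in the second, while the median of all genes stood at 0.07 and 0.21. In the second library the difference followed the number of sites: -0.10 in the 410 hosts with 1 site, -0.37 in the 91 with 2 and -0.85 in the 43 with 3 or more. In the first library those medians were 0.07, 0.10 and 0.03, and in the siCirbp libraries they were between -0.03 and 0.16. This pattern thus rests on a single library.

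**Figure D5:**
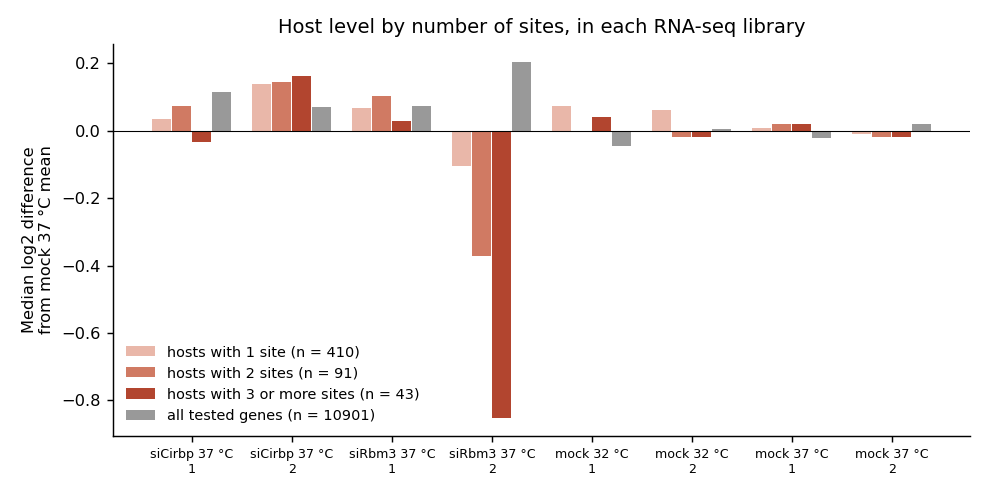
Median log2 difference from the mean of mock 37 °C, in each RNA-seq library, for hosts with 1, 2 and 3 or more Cirbp-only gene body sites and for all tested genes. In the second library labelled siRbm3 the hosts with 3 or more sites stand at -0.85 and all genes at 0.21, while in the other 7 libraries the medians of hosts with 3 or more sites lie between -0.03 and 0.16.

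Of the 43 hosts with 3 or more sites, 39 (90.7%) were below the mean of mock cells at 37 °C in that library and 16 (37.2%) were under 0.5 times it, against 32.4% and 7.87% of all tested genes. Rc3h2 had 12.7 and 2.94 FPKM in the libraries labelled siRbm3, against 12.3 and 12.6 FPKM in mock cells at 37 °C. Xpo1 had 37.6 and 13.6 FPKM against 41.1 and 39.1 FPKM, and Srsf1 65.0 and 33.1 FPKM against 48.2 and 47.4 FPKM. In Rc3h2 and Srsf1 only the second library was below both mock libraries, and in Xpo1 both were. Matr3, a nuclear matrix RNA-binding protein with 6 sites, had 57.9 and 22.5 FPKM against 64.9 and 66.3 FPKM. Zc3h7b, also with 7 sites, went the other way, with 28.9 and 32.4 FPKM against 23.0 and 26.03 FPKM.

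Other sets gave smaller differences in that library. The 305 tested hosts of Cirbp-only sites near 3′ ends had a median of -0.16, the 505 hosts of Rbm3-only gene body sites -0.04 and the 44 of these with 3 or more Rbm3-only sites -0.22. All 829 tested genes with a transcript of at least 4000 nt and a mean of at least 20 FPKM had a median of 0.03, and the median transcript and level of the 43 hosts were 5262 nt and 37.1 FPKM. Without the first library labelled siRbm3, 137 of 544 hosts (25.2%) were lower and 1 higher than in mock cells at 37 °C, and 7.5% of all genes were lower and 1.22% higher. That fit takes the lone library to vary as the other groups did.

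Between the siCirbp libraries and those labelled siRbm3, which share no mock library, 0 of 544 hosts passed the limma threshold, and 0.0367% of all genes did, 0.0183% higher and 0.0183% lower. At an unadjusted p under 0.05 stood 122 hosts (22.4%) and 15.2% of all genes. The median log2 difference was 0.19 in hosts and 0.00 in all genes, and 0.57 in hosts with 3 or more sites. Without the second library labelled siRbm3 the host median was 0.04, against 0.03 in all genes. Without the first, 200 hosts (36.8%) were higher and 11 (2.02%) lower, against 12.3% and 7.24% of all genes. Hat1 and Ccna2 had the smallest p values among the higher hosts, with differences of 1.04 and 0.85.

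Since the study's title names alternative polyadenylation, the share of each transcript in its gene's FPKM was also compared, for genes with at least 2 transcripts of at least 10% each. This covered 218 transcripts of 97 host genes. After siRNA against Cirbp 0 host transcripts passed the limma threshold and 0.0% of all transcripts did, with 31 host transcripts (14.2%) and 11.4% of all at an unadjusted p under 0.05. In mock cells at 32 °C 0 host transcripts passed, against 0.307% of all, with 23 (10.6%) and 14.0% at an unadjusted p under 0.05.

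The transcript named in both comparisons was in Ddx6, an RNA helicase of P-bodies with a site scoring 260. Transcript NM_181324 held 32.4% and 65.7% of the gene's FPKM in siCirbp libraries, 44.2% and 66.5% in those labelled siRbm3, and 47.8% and 61.8% in mock cells at 32 °C, against 0.0038% and 0.0041% in mock cells at 37 °C. For Ddx6 the mock libraries at 37 °C stood apart from the other 6, yet the limma adjusted p was 0.300 for siCirbp and 0.0894 for 32 °C. In Ythdf3, a reader of N6-methyladenosine with 5 sites, the transcript compared was NM_001145919. It held 91.1% and 87.8% in siCirbp libraries, against 45.6% and 33.1% in mock cells at 37 °C (limma adjusted p = 0.364). Its share was also 82.2% and 76.2% in the libraries labelled siRbm3, and 76.7% and 34.4% in mock cells at 32 °C. In Suz12, of the Polycomb repressive complex, NM_199196 held 53.9% and 26.6% against 78.7% and 77.9% in the same 2 groups (limma adjusted p = 0.364). That share was 79.6% and 78.3% in the libraries labelled siRbm3, and 44.75% and 54.4% in mock cells at 32 °C.

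At 32 °C transcript NM_001177379 of Cpeb2, a regulator of cytoplasmic polyadenylation, held 60.9% and 51.4%, against 25.4% and 30.3% in mock cells at 37 °C (limma adjusted p = 0.134). Luc7l and Prrc2b had adjusted p values of 0.134 and 0.145. Kif21a and Casc4 also led the siCirbp comparison, and Kif21a had a failed estimate in 4 of the 8 libraries. None of these shares is a direct measure of 3′ end use.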

How the data were processed

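Sites were used as deposited by the authors, 1 list per protein in mm9, with a marked nucleotide and a score per site. Their caller is not given in the sources used here. FPKM values come from Cufflinks-style tables that the authors deposited, with 28702 transcripts. Reads were aligned with TopHat 1.1.2, per the submitters' processing notes. The coverage column, deposited by the authors, was not tested. Transcript FPKM were summed per gene. Genes averaging at least 1 FPKM were fitted as log2(FPKM + 1) with limma 3.58.1 in R 4.3.3 (trend, robust), which left 4 residual degrees of freedom. Fold changes on this scale understate those of low genes. Gene strands came from RefSeq's GRCm38.p6 promoter table. The fit was tested on simulated data. Members, lists and tests were chosen with earlier results of these data known. Named were the 12 highest sites, the 5 hosts with most sites, the 5 of highest FPKM, per comparison up to 6 called rises and 6 falls (or 3 of smallest p each way), up to 5 transcripts, and up to 4 hosts per list. Further names, among them Matr3 and those in list counts, were chosen after their values were seen. PAR-CLIP depth is unknown. Results for some list members are not reported here.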

Additional observations from a re-analysis of the deposited data

How the results depend on the processing

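The site count was 814 by the rule and 426 when the score had to reach the Cirbp list's median. Other distance and overlap choices gave 546 to 969 sites. Host genes called for siCirbp against mock 37 °C numbered 10, but 3 with no filter on low values, 0 with only both groups compared and 5 among hosts of sites at or above the median score. Leaving out single libraries gave 0 to 89. For 32 °C the count was 153, but 386 with only both groups compared, 77 among hosts of higher-scoring sites, and 18 to 264 without single libraries. For siRbm3 it was 0, but 1 with the highest transcript alone and 0 to 138 without single libraries, the 138 being without siRbm3 replicate 1. For siCirbp against siRbm3 it was 0, and 0 to 211 without single libraries, the 211 again without siRbm3 replicate 1. The share count at 32 °C was 0, but 1 (Ddx6) with a pseudocount of 0.1. Across genes, the deviations of same-numbered libraries from their group means correlated at -0.15 to 0.09. With 2 libraries per group this cannot decide whether same-numbered libraries share a culture or preparation. With the replicate block 0 hosts were called for siCirbp and 130 for 32 °C. Leaving out genes with a failed estimate, chosen after seeing the data, gave 10 and 150. No gene or transcript named for its fold change or p by the rule changed direction under any alternative run. Among hosts named for their sites, some log2 changes that were not called ran across 0. For siRbm3 against mock 37 °C these were Srsf1, from -0.52 to 0.44, and Rc3h2, from -1.77 to 0.03. For siCirbp against mock 37 °C they were Rc3h2, from -0.13 to 0.24, and Zc3h7b, from -0.13 to 0.32. For siCirbp against siRbm3 they were Rc3h2, from -0.08 to 1.71, and Zc3h7b, from -0.45 to 0.01. The cause of these shifts was not tested. Few libraries, 2 per group, and 1 PAR-CLIP library per protein limit all counts.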
